A study of Homo sapiens with 12 samples.

Results

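The genes described here are 10 textbook targets of the tumour suppressor p53, chosen by symbol from the 59577 genes of the deposited table. They are CDKN1A, GDF15, MDM2, BTG2, TP53I3, FDXR, RRM2B, FAS, TNFRSF10B and AEN. The cells were H1299, an established human lung cancer line that the labels class as lung adenocarcinoma. Of 12 samples of this line, 6 had been kept at 60% oxygen, 5% CO2 and 35% nitrogen for 24 h (hyperoxia) and 6 at 21% oxygen, 5% CO2 and 74% nitrogen (normoxia). The line is known to make no p53 protein, and both groups share this. The question put to these genes was which of them differ after a day of raised oxygen in cells that lack the factor they are named for. No label tells whether replicates were cultured apart, so the p-values reflect the spread among these 12 samples alone, and that spread may be technical.

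p53 is a transcription factor that is stabilised after DNA damage and other stress, and it binds paired decamers in the DNA of its targets. Its products halt the cell cycle, repair DNA, alter redox metabolism or start cell death, while the ubiquitin ligase MDM2 feeds back to destroy p53. Several of these genes are also read out by other factors. CDKN1A can be driven through GC boxes and by SMAD and FOXO factors, GDF15 by ATF4, CHOP and EGR1, and TNFRSF10B by CHOP.

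The values are TPM, transcript abundances scaled for gene length and to a common total, so levels can be set side by side between genes. TPM keeps no sequencing depth, so how deeply each sample was read is unknown. The TPM of a sample added up to 996138 at the lowest and 998797 at the highest, and between 14275 and 14635 genes reached 1 TPM. On the first principal component, which held 20.7% of the variance, the hyperoxia samples lay between -19.8 and -11.3, normoxia replicates 1 to 3 between 5.12 and 9.44, and normoxia replicates 4 to 6 between 18.7 and 33.3. The second component held 11.7%. On it normoxia replicates 1 to 3 lay between -30.0 and -9.59, and replicates 4 to 6 between 2.01 and 16.9. Hyperoxia samples lay there between -1.37 and 15.5. The 3 calls below were also made without normoxia replicates 4 to 6, which stood apart on the first component. CDKN1A was then higher by 0.70, GDF15 by 1.22 and AEN by 0.29 on the log2 scale. All 3 passed (limma adjusted p = 6.5e-04, 0.0156 and 0.0376). Leaving out normoxia replicates 1 to 3 together, which stood apart on the second component, was not tried. The keratin genes KRT8 and KRT18 stood at 592 ± 22.8 and 947 ± 37.7 TPM in hyperoxia and at 603 ± 27.5 and 955 ± 33.2 TPM in normoxia (SD, n = 6 each). VIM, a mesenchymal marker, stood at 3004 ± 242 TPM in hyperoxia and 3351 ± 189 TPM in normoxia (SD, n = 6 each). The other epithelial and lung markers EPCAM, CDH1, NKX2-1, SFTPB, SFTPC and NAPSA averaged below 1 TPM in both groups. The summed level of 9 markers of leukocytes, endothelium, fibroblasts and hepatocytes was between 1.14 and 3.07 TPM in hyperoxia samples and between 1.92 and 2.72 TPM in normoxia samples. Of those 9 markers, CD3E and MS4A1 were listed at 0 in all 12 samples.

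The p53 relatives p63 and p73 bind similar DNA. TP63 was at most 0.06 TPM in a hyperoxia sample and 0.04 TPM in a normoxia sample. TP73 was listed at 2.26 ± 0.59 TPM in hyperoxia and 2.32 ± 0.40 TPM in normoxia (SD, n = 6 each), a difference of -0.03 on the log2(TPM + 1) scale (95% interval -0.30 to 0.23, limma adjusted p = 0.888). TP73 shares 633 exonic bases (GENCODE 29) with TP73-AS1 on the opposite strand, at 15.6 ± 1.69 TPM in hyperoxia and 15.2 ± 1.22 TPM in normoxia (SD, n = 6 each). The sources name both a strand-specific library kit and another kit, so reads of such a pair cannot be told apart with certainty.

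Of the 10 genes, 9 averaged at least 1 TPM and entered the test over 14520 genes, and 3 of these 9 were higher in hyperoxia: GDF15, CDKN1A and AEN. None was lower. Among all genes tested 11.7% were called higher and 5.63% lower (limma, Benjamini-Hochberg adjusted p below 0.05), or 1698 higher and 818 lower. After median-of-ratios scaling that split was 1279 higher and 1277 lower. The median log2 difference was 0.15 over the 9 genes and 0.03 over all genes tested. The 10 genes were chosen with earlier results of these data known, so their share called is not an independent result.

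The promoter windows of the genes that rose are shown first, with the downstream MDM2 start for contrast, because that start is the one known as p53-responsive. Each runs from 250 bases before to 50 bases after a transcription start (RefSeq, GRCh38.p14), 5′ to 3′ along the gene's strand, and capitals mark the letters of any motif searched. The windows are chr6:36678464-36678763 (plus strand) for CDKN1A, chr19:18385908-18386207 (plus) for GDF15, chr15:88621090-88621389 (plus) for AEN and chr12:68808767-68809066 (plus) for MDM2.
CDKN1A: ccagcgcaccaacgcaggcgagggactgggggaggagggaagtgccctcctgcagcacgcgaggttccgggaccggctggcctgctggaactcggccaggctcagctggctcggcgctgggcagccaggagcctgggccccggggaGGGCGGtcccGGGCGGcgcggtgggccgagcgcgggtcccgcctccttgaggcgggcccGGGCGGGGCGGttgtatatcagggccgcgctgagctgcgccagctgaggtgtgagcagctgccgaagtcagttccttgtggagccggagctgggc
GDF15: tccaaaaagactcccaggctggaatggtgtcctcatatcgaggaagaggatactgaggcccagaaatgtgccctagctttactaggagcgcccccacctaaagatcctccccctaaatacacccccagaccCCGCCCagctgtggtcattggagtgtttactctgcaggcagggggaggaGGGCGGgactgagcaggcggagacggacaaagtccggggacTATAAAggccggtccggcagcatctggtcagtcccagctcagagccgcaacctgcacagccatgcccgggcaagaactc
AEN: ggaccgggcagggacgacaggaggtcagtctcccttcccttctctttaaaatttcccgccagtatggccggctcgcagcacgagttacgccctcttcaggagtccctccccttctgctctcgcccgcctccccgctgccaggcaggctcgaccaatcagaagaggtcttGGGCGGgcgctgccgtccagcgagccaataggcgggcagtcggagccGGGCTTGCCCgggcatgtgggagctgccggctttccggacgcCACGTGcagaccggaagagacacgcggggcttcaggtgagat
MDM2: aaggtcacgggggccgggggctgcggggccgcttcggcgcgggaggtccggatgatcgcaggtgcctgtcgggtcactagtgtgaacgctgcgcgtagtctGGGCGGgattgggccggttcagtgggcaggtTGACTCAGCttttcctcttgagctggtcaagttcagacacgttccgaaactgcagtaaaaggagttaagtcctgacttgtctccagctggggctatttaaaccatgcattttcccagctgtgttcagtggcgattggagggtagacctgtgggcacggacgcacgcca

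Motifs were searched on both strands in these windows and in all 35116 promoter windows of the reference table. The GC box GGGCGG, bound by SP1 and related factors, was in 45% of all windows. It occurred 4 times in the CDKN1A window, where the last 2 overlap, 2 times in that of GDF15 and 1 time in those of AEN and MDM2. An exact match to the p53 consensus decamer, found in 6.63% of all windows, was in the AEN window and in none of the other 3 printed here. Decamers with a mismatch were not searched for, nor was DNA outside the windows. A window without an exact match may therefore still hold or lie near a p53 site. GDF15 alone of the 4 held a TATA box (TATAAA, 11.5% of windows). The E-box CACGTG (7.26%) was in the AEN window. The MDM2 window held TGACTCAGC, which matches both the AP-1 site TGANTCA (7.71%) and the core of the antioxidant response element TGACNNNGC (13.3%), so these matches are the same bases. None of the 4 held the CRE TGACGTCA (1.85%), the ATF4-type core TGATGNAA (3.62%) or the EGR1 site GCGNGGGCG (9.43%). Of the 10 genes 8 had windows in the table, 14 in all. Some of these motifs also occurred in windows of members that did not pass or were not tested, but the TATA box and the E-box did not. The p53 decamer was also in a window each of FDXR and FAS, and the first FDXR window held 6 GC boxes. BTG2 held 2 EGR1 sites and 3 GC boxes, and each of these EGR1 sites overlaps a GC box. A FAS window held 1 EGR1 site, which also overlaps a GC box. The core of the antioxidant response element was in the TP53I3 window and in 2 FAS windows. Those 2 FAS windows overlap, and the match is the same bases in both. A match is a description of letters, and binding was not measured.

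**Figure D1:**
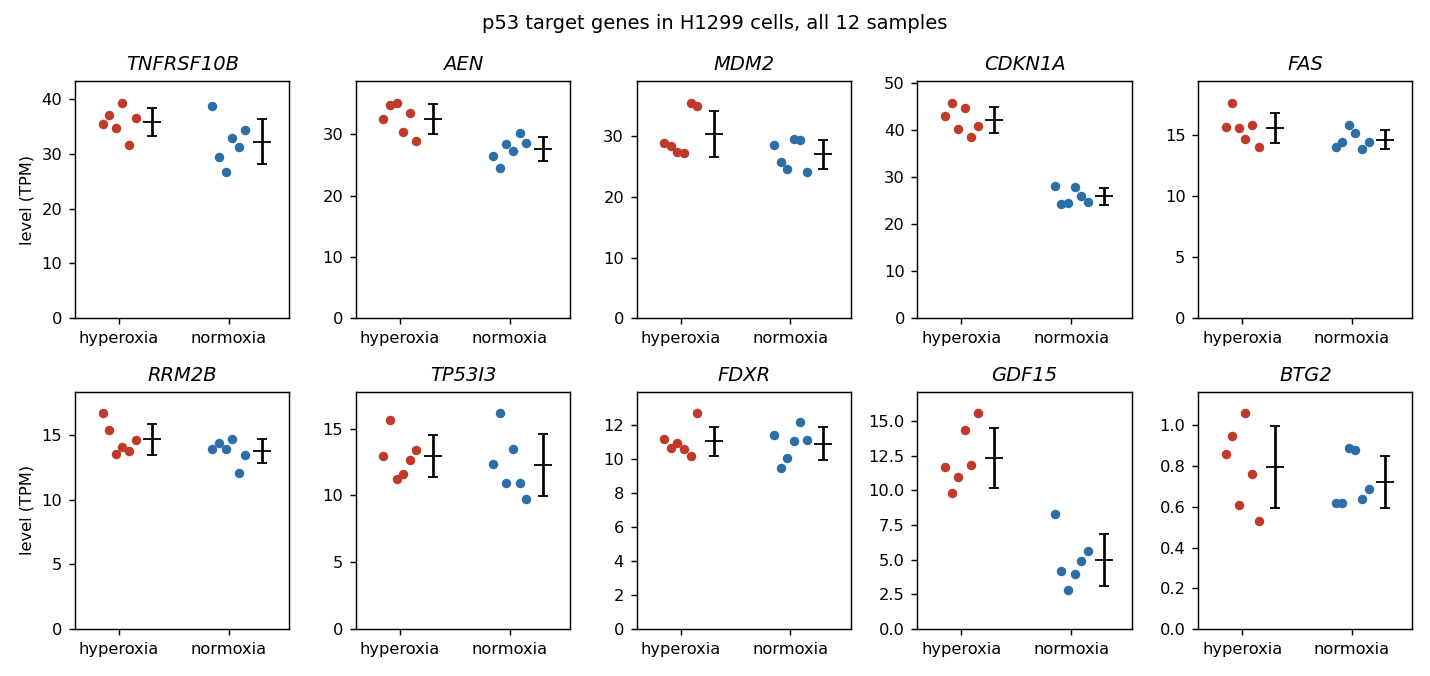
Level in TPM of the 10 p53 target genes in each of 6 hyperoxia and 6 normoxia samples (points), with the group mean and SD (bars); panels are ordered by normoxia level and each axis starts at 0. CDKN1A and GDF15 show no overlap between the groups, with hyperoxia samples from 38.48 and 9.77 TPM upwards.

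The growth arrest genes were CDKN1A and BTG2. CDKN1A (ENSG00000124762) encodes p21, an inhibitor of cyclin-dependent kinases. Its lowest, median and highest levels were 38.48, 41.9 and 45.8 TPM in hyperoxia, against 24.26, 25.3 and 28 TPM in normoxia. Every hyperoxia sample lay above every normoxia sample. The ratio of the means was 1.63, and the log2 difference was 0.68 (SE 0.05, 95% interval 0.57 to 0.80, limma, Benjamini-Hochberg adjusted p = 4.05e-06). Across all alternative settings run, the difference stayed between 0.65 and 0.71 and passed the test in each. In size and sign it lay at the 99.2nd percentile of the log2 differences of all genes tested. DINOL, the antisense noncoding gene that shares 146 exonic bases with CDKN1A, averaged 0.015 TPM in hyperoxia and 0.0317 TPM in normoxia.

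BTG2 (ENSG00000159388) encodes an antiproliferative protein that recruits a deadenylase to mRNA. It averaged 0.795 ± 0.202 TPM in hyperoxia and 0.723 ± 0.128 TPM in normoxia (SD, n = 6 each), below the minimum of 1 TPM for the test. The normoxia values lay within the hyperoxia range (exact permutation test, two-sided p = 0.474). Low as it was, the gene was listed above 0 in every sample, between 0.53 and 1.06 TPM in hyperoxia and between 0.62 and 0.89 TPM in normoxia.

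GDF15 (ENSG00000130513) encodes a secreted stress cytokine of the TGF-beta family. It measured 9.77, 11.7 and 15.55 TPM as lowest, median and highest in hyperoxia, against 2.81, 4.55 and 8.26 TPM in normoxia. The groups did not overlap, and normoxia replicate 1 was the highest of its group. The means stood in a ratio of 2.49, the widest of the 10 genes. On the log2(TPM + 1) scale the difference was 1.20 (SE 0.18, 95% interval 0.82 to 1.59, limma adjusted p = 6.56e-04). Its spread was wider than that of CDKN1A, with a coefficient of variation of 17.6% in hyperoxia and 37.8% in normoxia, against 6.65% and 6.63% for CDKN1A. GFRAL, the receptor of this cytokine, was listed at 0 in all 12 samples, and its co-receptor gene RET averaged at most 0.00333 TPM.

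AEN (ENSG00000181026) encodes a nuclease that promotes apoptosis and belongs to the family of ISG20. It stood at 28.97, 33.0 and 35.21 TPM as lowest, median and highest in hyperoxia and at 24.6, 27.9 and 30.3 TPM in normoxia. The groups overlapped, with the lowest hyperoxia sample below the highest normoxia sample. The ratio of the means was 1.18 and the log2 difference 0.23 (SE 0.06, 95% interval 0.10 to 0.36, limma, Benjamini-Hochberg adjusted p = 0.0178). The call ended after median-of-ratios scaling, at 0.20 (limma adjusted p = 0.0651), and held in the other 20 alternatives (adjusted p between 0.00879 and 0.0421). The exonic bases of AEN and GDF15 overlap no other gene in GENCODE 29.

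CDKN1A and GDF15 were thus 2 of 9 tested genes whose hyperoxia samples all lay above the normoxia samples, a pattern seen in 6.2% of all genes tested. No member had all hyperoxia samples below, as did 2.58% of all genes tested, which makes 8.78% in either direction. Given how the members were chosen, this count is not an independent result either.

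**Figure D2:**
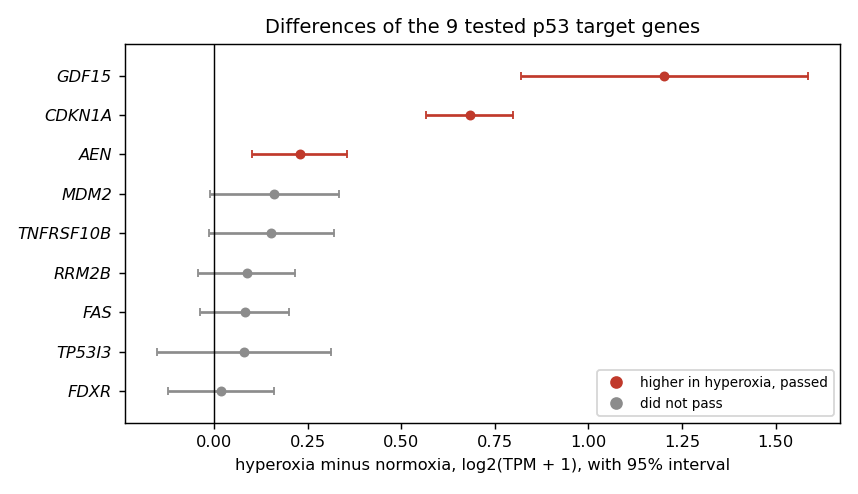
Difference between hyperoxia and normoxia on the log2(TPM + 1) scale with its 95% interval for the 9 tested p53 target genes; red points passed the test and grey points did not. GDF15, CDKN1A and AEN stand clear of 0, at 1.20, 0.68 and 0.23, and the intervals of the other 6 include 0.

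MDM2 (ENSG00000135679), the ubiquitin ligase that degrades p53, did not pass the test. Its lowest, median and highest levels were 27.31, 28.6 and 35.59 TPM in hyperoxia, against 24.21, 27.2 and 29.57 TPM in normoxia. Hyperoxia replicates 5 and 6, at 35.59 and 35.02 TPM, lay above all other samples, while the other 4 hyperoxia samples lay within the normoxia range. The log2 difference was 0.16 (SE 0.08, 95% interval -0.01 to 0.33, limma adjusted p = 0.193). MDM2 shares 439 exonic bases with AC025423.2, a processed pseudogene on the same strand, at 24.0 ± 5.75 TPM in hyperoxia and 21.4 ± 1.71 TPM in normoxia (SD, n = 6 each). How the authors' counting split reads between them is not given in the sources used here, so the level of MDM2 is uncertain. On the opposite strand MDM2 shares 785 exonic bases with AC025423.4, at 1.98 TPM in hyperoxia and 3.08 TPM in normoxia, and 133 with CPM, at 37.8 TPM in hyperoxia and 41.6 TPM in normoxia. The MDM2 relative MDM4, which binds and inhibits p53, stood at 3.46 ± 0.45 TPM in hyperoxia and 3.23 ± 0.66 TPM in normoxia (SD, n = 6 each; limma adjusted p = 0.643).

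The death receptor genes FAS and TNFRSF10B were expressed, and neither passed. TNFRSF10B (ENSG00000120889) encodes the TRAIL receptor DR5. It measured 31.67, 36.0 and 39.34 TPM as lowest, median and highest in hyperoxia, against 26.75, 32.1 and 38.71 TPM in normoxia, with wide overlap (log2 difference 0.15, 95% interval -0.01 to 0.32, limma adjusted p = 0.202). TNFRSF10B shares 67 exonic bases with RHOBTB2 on the opposite strand, which averaged 4.98 TPM in hyperoxia and 4.135 TPM in normoxia. FAS (ENSG00000026103), the receptor of Fas ligand, stood at 14.06, 15.6 and 17.69 TPM in hyperoxia and 13.89, 14.5 and 15.84 TPM in normoxia (log2 difference 0.08, 95% interval -0.04 to 0.20, limma adjusted p = 0.338). FAS shares 380 exonic bases with ACTA2 on the opposite strand, which averaged 5.69 TPM in hyperoxia and 6.10 TPM in normoxia. Their ligands were near 0: FASLG was listed at 0 in all 12 samples and TNFSF10, which encodes TRAIL, averaged 0.0383 TPM in hyperoxia and 0.0133 TPM in normoxia.

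Around these receptors, 5 of 8 further genes of the pathway were tested, of which 2 rose, 1 fell and 2 did not pass, beside 11.7% higher and 5.63% lower among all genes tested. TNFRSF10D, a TRAIL receptor that lacks a working death domain, measured 17.34, 18.7 and 21.58 TPM as lowest, median and highest in hyperoxia, against 12.36, 13.4 and 14.81 TPM in normoxia. Its groups did not overlap (log2 difference 0.48, SE 0.06, limma adjusted p = 1.88e-04). CASP8, the initiator caspase recruited by both receptors, rose by 0.19 (SE 0.05, limma adjusted p = 0.029). FADD, the adaptor between receptor and caspase, fell by 0.18 (SE 0.05, limma adjusted p = 0.0183). The CASP8 call ended in 8 of 21 alternatives, among them median-of-ratios scaling (adjusted p = 0.0701), and the FADD call without normoxia replicates 4 to 6 (adjusted p = 0.103).

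None of the redox and nucleotide genes TP53I3, FDXR and RRM2B passed the test. TP53I3 (ENSG00000115129), a quinone reductase, measured 11.26, 12.8 and 15.66 TPM as lowest, median and highest in hyperoxia and 9.72, 11.6 and 16.15 TPM in normoxia (log2 difference 0.08, 95% interval -0.15 to 0.31, limma adjusted p = 0.662). It shares 80 exonic bases with FAM228B on the opposite strand, which averaged 3.425 TPM in hyperoxia and 3.33 TPM in normoxia. FDXR (ENSG00000161513), the mitochondrial reductase that passes electrons to ferredoxins, measured 10.19, 10.8 and 12.68 TPM in hyperoxia and 9.48, 11.1 and 12.19 TPM in normoxia (log2 difference 0.02, 95% interval -0.12 to 0.16, limma adjusted p = 0.884), and -0.01 after median-of-ratios scaling. For RRM2B (ENSG00000048392), the p53-inducible small subunit of ribonucleotide reductase, the levels were 13.52, 14.35 and 16.69 TPM in hyperoxia and 12.05, 13.95 and 14.7 TPM in normoxia (log2 difference 0.09, 95% interval -0.04 to 0.22, limma adjusted p = 0.355). In all 3 the groups overlapped, and none of the upper interval bounds reached the difference of CDKN1A. RRM2, the small subunit that serves DNA replication, averaged 237 ± 7.95 TPM in hyperoxia and 212 ± 13.3 TPM in normoxia (SD, n = 6 each), higher by 0.16 on the log2 scale (limma adjusted p = 0.0174). The ferredoxin genes FDX1 and FDX2, whose products take electrons from FDXR, did not pass (log2 differences 0.00 and 0.13, limma adjusted p = 0.996 and 0.214).

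The order of the 10 levels differed little between the groups, apart from the genes that rose. In hyperoxia the means ran CDKN1A at 42.1, TNFRSF10B at 35.8, AEN at 32.6, MDM2 at 30.4, FAS at 15.6, RRM2B at 14.7, TP53I3 at 12.9, GDF15 at 12.3, FDXR at 11.03 and BTG2 at 0.795 TPM. In normoxia they ran TNFRSF10B at 32.2, AEN at 27.6, MDM2 at 27.0, CDKN1A at 25.9, FAS at 14.7, RRM2B at 13.7, TP53I3 at 12.3, FDXR at 10.9, GDF15 at 4.96 and BTG2 at 0.723 TPM. CDKN1A stood above TNFRSF10B, AEN and MDM2 in hyperoxia and below them in normoxia. Neighbours in either order overlapped in their sample ranges, with these exceptions. In both groups the 4 highest genes lay clear of FAS and below, and BTG2 lay clear below all others. In normoxia GDF15, at no more than 8.26 TPM, lay below FDXR, at no less than 9.48 TPM.

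The authors' deposited table gives its own comparison of the groups. Of the 10 genes, 6 had an adjusted p below 0.05 in the authors' deposited table, all with a fold change above 1, beside 30% of the genes tested here. In the authors' deposited table the fold changes and adjusted p-values were 2.48 and 8.5e-12 for GDF15, 1.62 and 1.9e-42 for CDKN1A, and 1.18 and 9.22e-04 for AEN. It also lists MDM2 at a fold change of 1.13 (adjusted p = 1.7e-05), TNFRSF10B at 1.11 (adjusted p = 0.00506) and FAS at 1.13 (adjusted p = 0.0254), the genes that did not pass in the fit on TPM. GDF15 was the 1 gene of the 10 with a positive call in the authors' deposited table, where no call had a fold change between 0.5 and 2. Such calls covered 0.358% of the genes tested here.

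Beyond these 10 genes, 37 further p53 targets were examined, of which 30 were tested; 4 rose, 2 fell and 24 did not pass. The share called was 20%, near the 17.3% of all genes tested. Their median log2 difference was 0.02, against 0.03 over all genes tested. PLK2, a polo-like kinase, rose to 44.3 ± 7.11 TPM in hyperoxia, against 22.8 ± 2.76 TPM in normoxia (SD, n = 6 each; log2 difference 0.92, limma adjusted p = 9.45e-05). FBXO22, a ubiquitin ligase subunit, rose by 0.33 (SE 0.05, limma adjusted p = 8.74e-04). Its ratio of mean TPM was 1.26, while the authors' deposited table gives a smaller fold change of 1.11 (authors' adjusted p = 0.00696). GADD45A, a damage-induced growth arrest gene, rose by 0.32 (SE 0.07, limma adjusted p = 0.00835); this gene was picked with its values in view.

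The 2 genes that fell were SESN2, a sestrin that restrains mTORC1, and BBC3, which encodes the cell death protein PUMA. SESN2 stood at 14.3 ± 1.51 TPM in hyperoxia and 26.0 ± 5.17 TPM in normoxia (SD, n = 6 each; log2 difference -0.81, limma adjusted p = 4.61e-04), and no sample of one group reached the other. BBC3 stood at 4.61 ± 0.95 TPM in hyperoxia and 6.38 ± 0.85 TPM in normoxia (SD, n = 6 each; log2 difference -0.40, limma adjusted p = 0.0216). BBC3 too was picked with its values in view. Its call ended in the exact rank-sum test (adjusted p = 0.112), without a TPM minimum (adjusted p = 0.0589) and without normoxia replicates 4 to 6 (adjusted p = 0.0864). The death gene BAX and the damage recognition genes DDB2 and XPC were among those that did not pass, at 0.06, 0.12 and -0.03 on the log2 scale (limma adjusted p = 0.604, 0.0822 and 0.80). The phosphatase gene PPM1D, a feedback inhibitor of p53, stood at -0.01 (limma adjusted p = 0.976). These 4 were also chosen after their values were seen. EDA2R and SPATA18, both induced by p53 in cells that have it, were listed at 0 in all 12 samples.

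**Figure D3:**
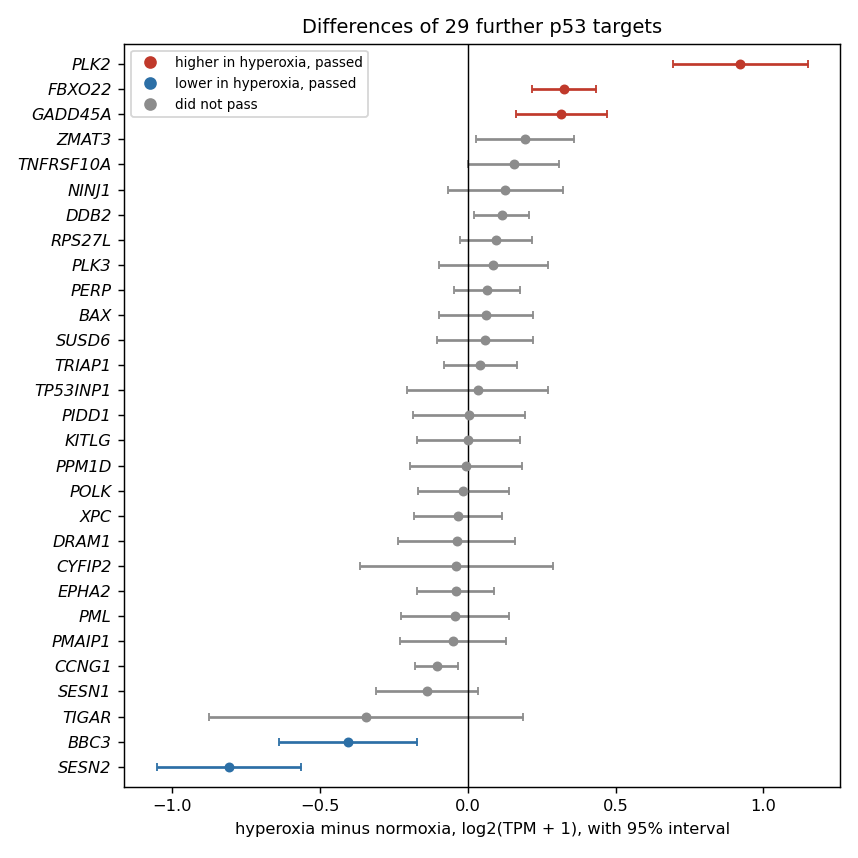
Difference between hyperoxia and normoxia on the log2(TPM + 1) scale with its 95% interval for 29 of the 30 tested genes among 37 further p53 targets; red points passed as higher, blue points as lower, and grey points did not pass. PLK2 at 0.92 and SESN2 at -0.81 stand at the ends, and the other genes shown lie between -0.40 and 0.33.

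Of 16 genes of the p53 family and of its control, 15 were tested and none passed in either direction (limma); 17.3% of all genes tested passed. They include the checkpoint kinases CHEK1 and CHEK2, at 0.03 and 0.15 on the log2 scale (limma adjusted p = 0.669 and 0.0911), and CDKN2A, whose ARF product inhibits MDM2, at 232 ± 22.3 TPM in hyperoxia and 226 ± 11.9 TPM in normoxia (SD, n = 6 each). Those 3 were chosen after their values were seen. ATM, also among the 15, averaged 27.55 TPM in hyperoxia and 25.8 TPM in normoxia over the sample columns. The authors' deposited table gives ATM a fold change of 0.482, so its deposited values disagree with each other. Among 7 other inhibitors of the cell cycle kinases, which include CDKN2A, 6 were tested, none rose and 3 fell, beside 5.63% lower among all genes tested. CDKN2C, an INK4 inhibitor, fell by 0.41 (limma adjusted p = 0.00346), its relative CDKN2D by 0.29 (limma adjusted p = 0.0386) and the phosphatase gene CDKN3 by 0.24 (limma adjusted p = 0.00333). The CDKN2D call ended in 13 of 21 alternatives. CDKN1B, the p27 relative of p21, stood at 26.5 ± 1.64 TPM in hyperoxia and 28.5 ± 2.60 TPM in normoxia (SD, n = 6 each; limma adjusted p = 0.313).

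In the families of the members, 14 genes were examined, of which 11 were tested; 3 rose and none fell, beside 11.7% higher and 5.63% lower among all genes tested. TOB1, an antiproliferative relative of BTG2, rose to 29.1 ± 2.23 TPM in hyperoxia, against 20.6 ± 1.64 TPM in normoxia (SD, n = 6 each; log2 difference 0.47, limma adjusted p = 2.32e-04), and BTG3 rose by 0.17 (limma adjusted p = 0.0169). RRM2, described above, was the third. The BTG3 call ended after median-of-ratios scaling (adjusted p = 0.0752) and without normoxia replicates 4 to 6 (adjusted p = 0.0653).

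Transcription factors that are known to act on some of these genes without p53 went both ways: of 23, 22 were tested, with 6 higher, 6 lower and 10 that did not pass. The share called was 54.5%, beside 17.3% of all genes tested. Like the other lists, this one was chosen with earlier results of these data known, so its share is not an independent result. FOS, an AP-1 subunit, rose to 4.88 ± 1.01 TPM in hyperoxia, against 1.18 ± 0.41 TPM in normoxia (SD, n = 6 each; log2 difference 1.44, limma adjusted p = 2.98e-05). EGR1, an early growth response transcription factor, rose to 3.50 ± 0.31 TPM in hyperoxia, against 1.40 ± 0.16 TPM in normoxia (SD, n = 6 each; log2 difference 0.91, limma adjusted p = 1.01e-05). JUN, the AP-1 partner of FOS, rose by 0.31 (limma adjusted p = 0.00233), and ZBTB17, which encodes the MYC partner MIZ1, by 0.37 (limma adjusted p = 0.00412). ATF4, a driver of GDF15 under amino acid stress, fell by 0.19 (limma adjusted p = 0.0237), and that call ended in 5 of 21 alternatives. DDIT3, which encodes CHOP, stood at 41.7 ± 4.43 TPM in hyperoxia and 47.5 ± 10.8 TPM in normoxia (SD, n = 6 each; limma adjusted p = 0.41), and NFE2L2, which encodes NRF2, at 0.01 on the log2 scale (limma adjusted p = 0.885). JUN, ZBTB17, ATF4, DDIT3 and NFE2L2 were chosen after their values were seen.

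MYC, a repressor of CDKN1A, and HIF1A, the oxygen-regulated factor, were counted among the 6 that were lower, but their deposited values disagree with each other. The sample columns average 62.5 TPM for MYC in hyperoxia and 152 TPM in normoxia, while the authors' deposited table gives a hyperoxia mean of 188 TPM beside a fold change of 0.414. For HIF1A the sample columns average 53.2 TPM in hyperoxia and 100.4 TPM in normoxia, while the authors' deposited table gives a fold change of 0.29. Without the 78 genes of this kind in the table, 6 factors were higher and 4 lower. None of the 10 p53 targets is among the 78. Whether any factor bears on the members was not tested.

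**Figure D4:**
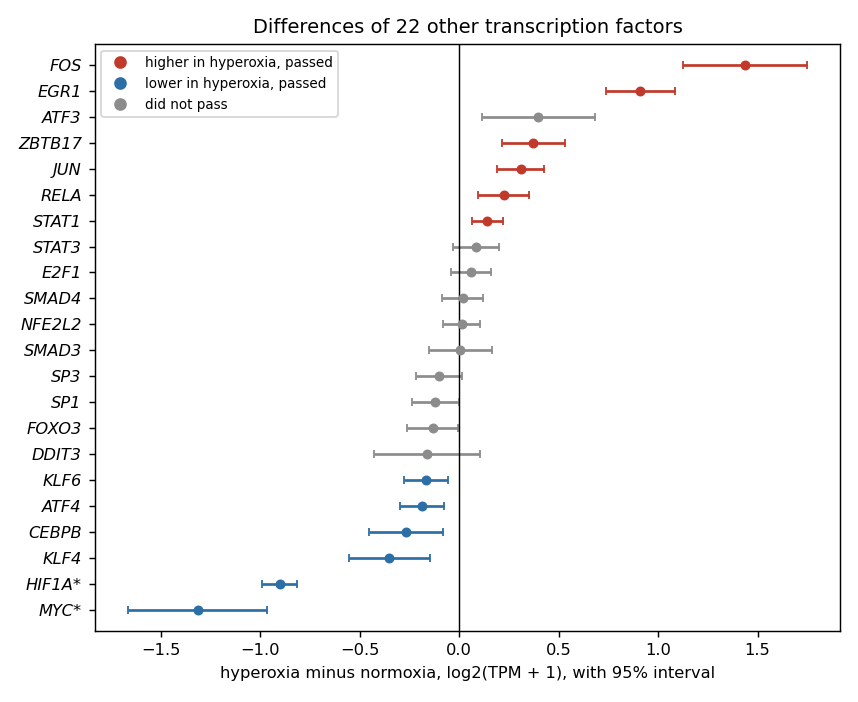
Difference between hyperoxia and normoxia on the log2(TPM + 1) scale with its 95% interval for 22 tested transcription factors; red points passed as higher, blue points as lower, grey points did not pass, and an asterisk marks genes whose deposited values disagree. FOS at 1.44 and EGR1 at 0.91 stand highest.

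The genes whose pattern over the 12 samples lay closest to each member that rose were found by the mean absolute difference of log2(TPM + 1), each gene taken from its own normoxia mean. Closest to CDKN1A were HEXIM1 at 0.0725, FTH1 at 0.0745 and PIR at 0.0789. For GDF15 they were SAT1 at 0.25, AL133476.1 at 0.252 and SQSTM1 at 0.254, a wider distance. For AEN they were NOL7 at 0.0432, HSPH1 at 0.0471 and GTF2A2 at 0.0472. The difference between the groups enters these distances, so genes with a like difference lie close. In the order named, the log2 differences were 0.61, 0.65 and 0.71 for the genes closest to CDKN1A. They were 1.07, 1.17 and 1.20 for those closest to GDF15, and 0.23, 0.21 and 0.20 for those closest to AEN. The distances describe the 12 samples and carry no test.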

How the data were processed

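RNA of 12 H1299 samples was analysed from 1 table deposited by the authors. Per the file headers its sample values are TPM, while its name gives another unit. A comparison by the authors stands beside them, with means of each group (TPM), the fold change (a ratio and its log2) and p-values before and after adjustment. Per the submitters' processing notes HTSeq 0.9.1 and edgeR 3.16.5 were used; for the aligner, the annotation and the step to TPM the answer is not given in the sources used here. Those notes list a mouse build, but all 59577 identifiers are human Ensembl ones (57365 are in GENCODE 29), so coordinates come only from RefSeq windows. A final row without a gene was left out. In 78 genes the deposited values disagree (tolerance 1e-06 in log2, 1e-05 TPM in means).

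Genes with a mean of at least 1 TPM over all samples (14520) were tested with limma 3.58.1 in R 4.3.3 (eBayes with trend) on log2(TPM + 1). Tests were two-sided, and calls were made at a Benjamini-Hochberg adjusted p below 0.05. This scale understates the change of low genes. All 12 samples entered, grouped by label. The limma step was tested on simulated data. Other settings tried were no filter or a minimum of 5 TPM, a pseudocount of 0.1, median-of-ratios scaling, eBayes without trend, a replicate block, an exact rank-sum test, leaving out each sample or normoxia replicates 4 to 6, and leaving out the 78 genes.

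The members and lists were chosen with earlier results of these data known. The rule for naming genes took all members, TP63 and TP73, for each list the genes that passed or the 4 with the smallest p, and the 3 genes closest in pattern to each member that passed. Marker genes, genes of the lists that did not pass and genes that share exons were named beyond it. The values of 2 genes of these lists are not reported here, though the list counts include them.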

Additional observations from a re-analysis of the deposited data

Results flagged for a closer look

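In 3 of 76 sets of 6 samples of 1 gene, the highest or lowest sample stood apart by more than Dixon's limit for the gap to the nearest sample divided by the range. Chance flags about 1 in 20 such sets. None of the 20 sets of the 10 p53 targets was among those flagged. The 76 sets were those of the members, of list genes that passed, and of TP63 and TP73, apart from genes not reported here. TP73 in hyperoxia replicate 6 stood at 3.38 TPM, against 1.83 to 2.39 TPM in the others (ratio 0.639). FBXO22 in hyperoxia replicate 1 stood at 37.43 TPM, against 41.29 to 43.26 TPM (ratio 0.662). BBC3 in normoxia replicate 1 stood at 8.01 TPM, against 5.68 to 6.48 TPM in the other normoxia samples (ratio 0.657). Sets of other list genes were left out of this count, and some of them passed the limit too. KRT8 in normoxia replicate 3 was such a set, at 550.82 TPM against 602.1 to 625.49 TPM in the other normoxia samples (ratio 0.687).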

How the results depend on the processing

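CDKN1A and GDF15 kept their direction and their call in all 21 alternatives, and the number of members called higher was 3 in each but median-of-ratios scaling, where it was 2. AEN lost its call there (0.20, adjusted p = 0.0651). No member was called lower in any alternative. Of the members that did not pass, FDXR changed sign with median-of-ratios scaling (-0.0097), and without hyperoxia replicate 6, normoxia replicate 2 or normoxia replicate 3, over a leave-one-out range of -0.0192 to 0.0494; TP53I3 changed sign without normoxia replicates 4 to 6 (-0.014). The cause was not tested. The leave-one-out ranges of the log2 differences were 0.66 to 0.71 for CDKN1A, 1.08 to 1.34 for GDF15 and 0.20 to 0.26 for AEN.

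Median-of-ratios scaling, which moved the median of all genes tested to -0.00, gave 1277 genes lower, and the rank-sum test, whose p-values are discrete, 515. Without normoxia replicates 4 to 6, with fewer samples, 1000 genes were higher and 375 lower. Among genes of the p53 family and control, 1 was lower with median-of-ratios scaling and 1 higher without normoxia replicates 4 to 6, and 0 to 1 were higher and 0 to 1 lower when single samples were left out. In the death receptor list 1 gene was higher with no filter, with median-of-ratios scaling and without normoxia replicates 4 to 6, where 0 were lower; leaving out single samples gave 1 to 2 higher. Of the factors, 2 were lower with no filter and in the rank-sum test, 3 without normoxia replicates 4 to 6, and 3 to 5 when single samples were left out.

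Replicate numbers are shared between the groups, but same-numbered samples did not deviate together (correlations between -0.117 and 0.0169), and 1 of 12 samples correlated best with its own number. With the replicate block 3 members were higher and 0 lower, and 1656 genes were higher and 889 lower; the adjusted p was 2.57e-04 for CDKN1A, 0.00276 for GDF15 and 0.0375 for AEN. The depth per sample is unknown, so no counting error can be given for low genes such as BTG2.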
